A study of Mus musculus with 12 samples.

Results

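Genes of cholesterol synthesis and of its main transcriptional control were followed in whole jejunum (the part of the small intestine between duodenum and ileum) of wild-type (WT) mice and of knockout (KO) mice in which Fgfr1op, a centrosomal gene now named Cep43, was deleted on induction. The set was chosen by name and held 28 genes: the enzymes from acetyl-CoA to cholesterol, and the regulators of the transcription factor SREBP2. A gene was measured by a probe set, a group of array probes with 1 value, that carried its symbol alone, and 26 of the 28 had one, out of 19938 genes measured in this way. Acat2 had no such probe set, and the only one for Mbtps2 was shared with another gene, so neither has a value here. Each mouse gave 1 array, and there were 12: 2 WT and 2 Fgfr1op KO mice at each of days 6, 9 and 12 post-tamoxifen. Tamoxifen, the drug that sets off the gene deletion, was given by intraperitoneal injection at 75 mg/kg for 5 days. The protocol text stands with all samples and does not say whether WT mice were injected. The sources used here do not give the age, sex or strain, what drives the recombinase, or which exons are lost.

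Cholesterol is built from acetyl-CoA in a long chain of reactions: to mevalonate, to the isoprenoid farnesyl diphosphate, to squalene, to the first sterol lanosterol, and from there by stepwise trimming to cholesterol. Most genes of the chain are known targets of SREBP2, a membrane-bound factor coded by Srebf2. When sterols run low, the escort protein Scap carries SREBP2 from the endoplasmic reticulum to the Golgi, where the proteases coded by Mbtps1 and Mbtps2 release its active part. When sterols are plentiful, the Insig proteins hold Scap and SREBP2 back. The small intestine both makes cholesterol and absorbs it from food and bile.

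The values are log2 signals as the authors deposited them, so that a difference of 1 is a doubling. A difference is KO minus WT, given with its standard error (SE) from limma, a linear model with a shared spread over all 12 arrays, and n is 2 mice per genotype at 1 day. Calls were made where the adjusted p was under 0.05, by the Benjamini-Hochberg method over 19938 genes, and "rose" and "fell" are used for called genes only. The KO minus WT difference of Cep43 itself was -0.31 (adjusted p = 0.2674) at day 6, -0.39 (SE 0.11, limma adjusted p = 0.0184) at day 9 and -0.09 (SE 0.11, adjusted p = 0.6380) at day 12, so the targeted gene was called lower at day 9 alone; whether its probes lie in the deleted part is unknown. Of the 12 enterocyte markers, 1 fell at day 6, 0 rose and 5 fell at day 9, and 1 rose and 6 fell at day 12; their mean signal was 12.55 to 12.79 in WT and 11.40 to 11.92 in KO of days 9 and 12. Of the 9 crypt and proliferation markers, 5 fell at day 9 and 8 at day 12, and of the 7 fibroblast markers 3 and 4 rose. Of the 11 immune cell markers, 6 fell at day 12. All these marker counts are to be read against all genes. Of those, 0.597% rose and 0.431% fell at day 6, 12.6% and 17.1% at day 9, and 13.7% and 13.7% at day 12. At days 9 and 12 a single rise among 7 or 12 markers is near or below these shares. Of the 7 markers of position along the gut, 1 rose at day 6, 1 rose and 2 fell at day 9, and 1 rose and 3 fell at day 12. The one that rose was Slc10a2, the bile acid transporter typical of ileum, by 3.79 (SE 0.17) at day 9 and 3.34 (SE 0.17) at day 12. Within WT, 1 of the 7 fell from day 6 to day 12, a comparison whose share over all genes is not given here. Smooth muscle markers (10 genes) had mean signals of 8.83 and 9.52 in WT and of 7.76 and 7.93 in KO at day 6, with 0 called. Their means were 8.24 and 8.91 in WT against 8.14 and 9.23 in KO at day 9. At day 12 KO was the higher, with 9.05 and 9.13 in WT against 9.22 and 9.83 in KO. Pancreatic and hepatocyte marker lists had mean signals of 4.91 to 5.58 on all arrays, where 1 hepatocyte gene, Tat, rose at days 9 and 12. In whole tissue, fewer cells of a type and less RNA per cell cannot be told apart, and the part of these shifts in the results below was not tested.

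At day 12 most called genes of the sterol pathway stood higher in KO, and a few stood lower. Enzymes from Hmgcs1 to Hsd17b7 along most of the chain rose, by up to 3.91-fold, as did Srebf2 and Scap, while Dhcr7, Lbr and Tm7sf2 among the sterol-modifying enzymes, and the sterol carrier Stard4, fell. Of the 26 genes, 14 rose and 4 fell at day 12, or 18 in all, where 13.7% of all genes rose and 13.7% fell. The 4 falls were near the share of all genes, and the 14 rises were well above it. At day 9, 6 rose (Pmvk, Fdps, Sqle, Cyp51, Hsd17b7 and Srebf2) and 8 fell (Ggps1, Tm7sf2, Lbr, Sc5d, Dhcr7, Mbtps1, Insig1 and Stard4), against 12.6% and 17.1% of all genes. At day 6 none was called. The median difference of the 26 was 0.12 at day 6, -0.14 at day 9 and 0.47 at day 12, beside 0.00, 0.03 and 0.02 over all genes. Averaged over days, 10 rose and 7 fell, against 15.7% and 16.9% of all genes. With quantile normalisation 8 rose and 6 fell at day 9, so the split at that day turned with the scaling. Without WT day 12 replicate 2 the day 12 count was 10 of 26 (8 higher and 2 lower), and without WT day 9 replicate 2 or KO day 9 replicate 1 the day 9 count was 8 or 9.

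**Figure D1:**
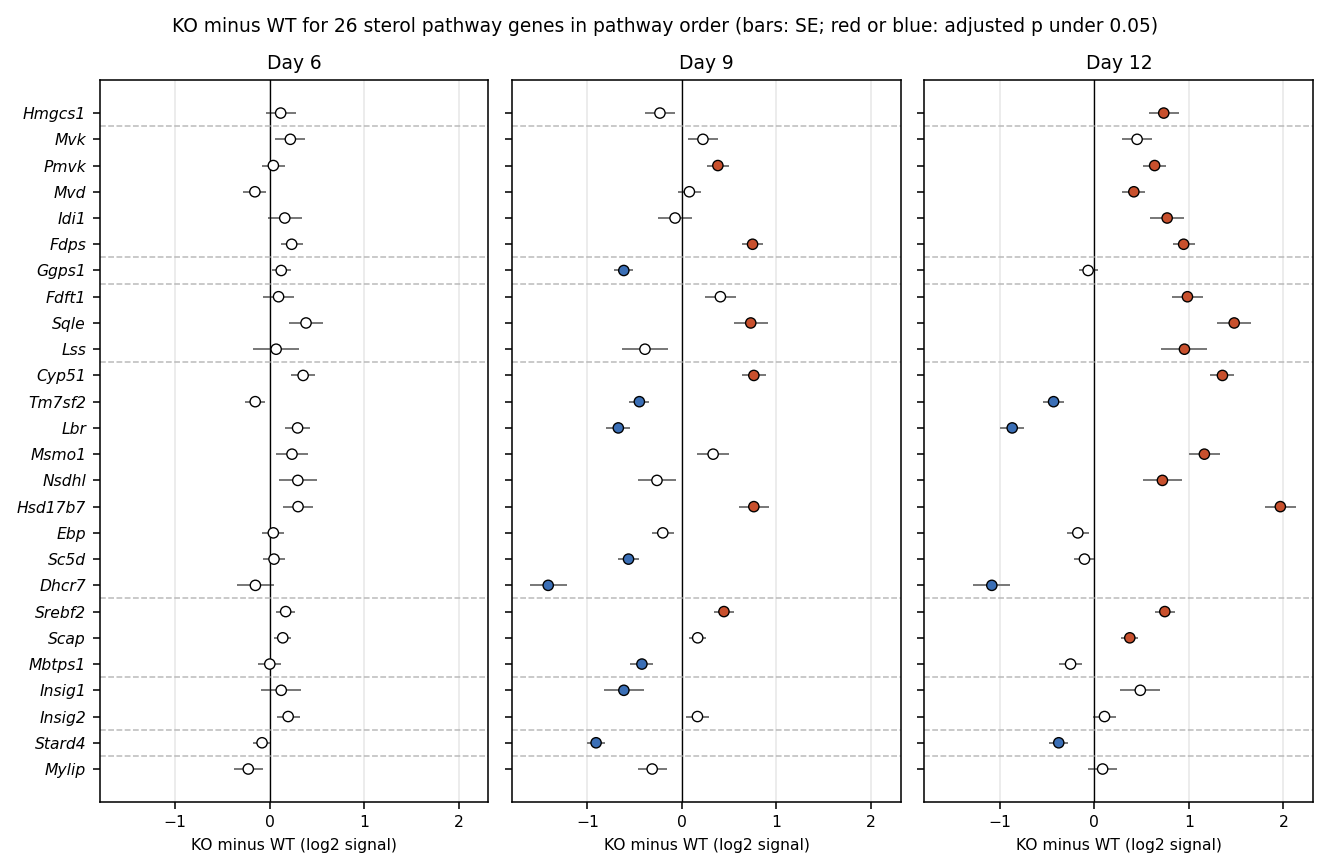
KO minus WT differences in log2 signal (x axis) of 26 genes in pathway order (y axis) at days 6, 9 and 12, with bars for the SE and 2 mice per genotype; red and blue points passed an adjusted p of 0.05, and dashed lines part the roles. No point is coloured at day 6, 14 are at day 9 and 18 at day 12, with Hsd17b7 farthest to the right (1.97) and Dhcr7 farthest to the left (-1.42 at day 9).

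Because many of these genes are known to share SREBP2 and its partners NF-Y and Sp1, the promoters were read from RefSeq sequence (build GRCm38.p6), 250 bases before to 50 after each start. The table held 24 of the 28 genes in 30 windows; Fdps, Fdft1, Sqle and Stard4 had none. The letters TCACNCCAC, the core of a sterol regulatory element, were searched on both strands and found in 1 gene, Hmgcs1, and in 1.2% of all 32851 windows. With at most 1 letter changed they were in 11 genes (11 of 30 windows, or 36.7%) and in 24.2% of all windows. CCAAT, the box bound by NF-Y, was in 20 of the 24 genes (66.7% of their windows, 37.4% of all), and GGGCGG, the box bound by Sp1, in 21 (80.0% of their windows, 35.7% of all); neighbouring matches of different motifs may share end letters. The windows of these genes had a median GC content of 61.8%, beside 52.7% over all windows. These shares are descriptions of the letters, not of bound sites. The Hmgcs1 stretch is shown because it alone holds the exact core, in capitals.

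Hmgcs1 (chr13:119690178-119690258, plus strand): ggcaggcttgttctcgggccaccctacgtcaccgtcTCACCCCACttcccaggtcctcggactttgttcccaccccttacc

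The nearest CCAAT before the start lay 12 to 216 bases upstream, with a median of 46, and within 100 bases in 17 of 20 genes. Of the genes in the table, a CCAAT was in 10 of the 11 that rose at day 12, 3 of the 3 that fell and 7 of the 8 that were not called, and at day 9 in 4 of 4, 6 of 7 and 10 of 11. The next stretches show its place, not its frequency, since they were chosen for holding it: first the 5 genes with the largest rises that had a CCAAT, then the 5 with the largest falls at day 9 or 12. The stretches were chosen after the counts were seen. A gene was counted if any of its windows held the box. Counted in that way, 41.1% of all 27025 genes with windows held a CCAAT, beside 83.3% of the 24. Dhcr7 had 3 windows, and a CCAAT lay only in the window that its stretch comes from. They read 5′ to 3′ on the gene's strand and lie before the start of transcription; capitals mark CCAAT, or ATTGG where it lies on the other strand.

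Hsd17b7 (chr1:169969206-169969253, minus strand): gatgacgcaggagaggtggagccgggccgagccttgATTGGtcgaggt
Cyp51 (chr5:4104698-4104762, minus strand): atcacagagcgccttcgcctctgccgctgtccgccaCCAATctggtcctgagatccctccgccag
Msmo1 (chr8:64733593-64733669, minus strand): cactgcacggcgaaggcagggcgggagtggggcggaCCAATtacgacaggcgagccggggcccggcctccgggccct
Lss (chr10:76531507-76531583, plus strand): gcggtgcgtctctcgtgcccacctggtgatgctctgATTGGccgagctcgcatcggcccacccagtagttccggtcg
Idi1 (chr13:8885556-8885605, plus strand): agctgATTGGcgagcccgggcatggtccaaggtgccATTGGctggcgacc
Dhcr7 (chr7:143830129-143830205, plus strand): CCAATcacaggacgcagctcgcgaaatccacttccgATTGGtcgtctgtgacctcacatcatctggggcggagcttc
Lbr (chr1:181842402-181842465, minus strand): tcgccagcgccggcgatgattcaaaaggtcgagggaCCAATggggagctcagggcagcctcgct
Ggps1 (chr13:14063503-14063579, minus strand): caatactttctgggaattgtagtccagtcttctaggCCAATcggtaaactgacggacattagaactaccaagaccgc
Insig1 (chr5:28071162-28071236, plus strand): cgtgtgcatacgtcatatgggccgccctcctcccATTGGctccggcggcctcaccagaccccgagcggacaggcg
Sc5d (chr9:42264301-42264360, minus strand): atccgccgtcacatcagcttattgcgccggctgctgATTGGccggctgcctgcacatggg

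Hmgcs1, the cytosolic synthase that makes HMG-CoA, opens the measured part of the chain. Its log2 signals were 10.97 and 11.27 in WT against 11.28 and 11.19 in KO on day 6, 11.07 and 10.88 in WT against 10.65 and 10.84 in KO on day 9, and 10.82 and 10.52 in WT against 11.20 and 11.61 in KO on day 12. KO thus lay below WT at day 9 and above it at day 12, and only the difference at day 12 passed: Hmgcs1 rose by 0.73 (SE 0.16, adjusted p = 0.0046), while the difference at day 9 was -0.23 (SE 0.16, adjusted p = 0.3071). The call ended without WT day 12 replicate 2. The difference moved between days 9 and 12 by 0.97 (limma adjusted p = 0.0319).

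The mevalonate enzymes came next. Mvk, mevalonate kinase, was not called on any day, with 0.22 (SE 0.16) at day 9 and 0.45 (SE 0.16, adjusted p = 0.0550) at day 12. Pmvk, which adds the next phosphate, had signals of 7.59 and 7.78 in WT against 7.68 and 7.77 in KO on day 6, 7.86 and 7.63 in WT against 8.26 and 7.99 in KO on day 9, and 7.55 and 7.45 in WT against 8.10 and 8.18 in KO on day 12. Its groups overlapped at day 6 and were apart on the later days, with rises of 0.38 (SE 0.12, adjusted p = 0.0327) at day 9 and 0.64 (SE 0.12, adjusted p = 0.0019) at day 12. The day 9 rise was 0.24 and not called without KO day 9 replicate 1, and not called without WT day 9 replicate 2. Mvd, the decarboxylase that follows, rose by 0.42 (SE 0.12, adjusted p = 0.0249) at day 12, a call lost without WT day 12 replicate 2 or either KO array of that day.

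Idi1, the isomerase of isopentenyl diphosphate, had signals of 9.05 and 9.09 in WT against 9.25 and 9.21 in KO on day 6, 9.14 and 8.87 in WT against 8.97 and 8.88 in KO on day 9, and 8.74 and 8.63 in WT against 9.10 and 9.81 in KO on day 12. The KO pair of day 12 was wide, and both arrays lay above WT. Idi1 rose by 0.77 (SE 0.18, adjusted p = 0.0074) at day 12; the difference was 0.42 without KO day 12 replicate 2, and the call ended without WT day 12 replicate 2. A further probe set of Idi1 stood at 0.76 at day 12 and -0.16 at day 9.

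Fdps makes farnesyl diphosphate, the branch point between sterols and other isoprenoids. Its signals were 7.80 and 7.82 in WT against 8.13 and 7.95 in KO on day 6, 7.66 and 7.45 in WT against 8.36 and 8.24 in KO on day 9, and 7.48 and 7.23 in WT against 8.27 and 8.33 in KO on day 12. Every KO array lay above every WT array, with little change in KO from day 9 to day 12, and the WT mean was lowest at day 12. Fdps rose by 0.75 (SE 0.12, adjusted p = 5.51e-04) at day 9 and 0.94 (SE 0.12, adjusted p = 8.87e-05) at day 12, or 1.68-fold and 1.92-fold.

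Ggps1 takes farnesyl diphosphate away from sterols, towards the geranylgeranyl group that anchors small GTPases. It had signals of 8.16 and 8.15 in WT against 8.26 and 8.29 in KO on day 6, 8.39 and 8.33 in WT against 7.69 and 7.79 in KO on day 9, and 8.34 and 8.24 in WT against 8.10 and 8.36 in KO on day 12. KO was low at day 9 alone. Ggps1 fell by 0.62 (SE 0.10, adjusted p = 8.17e-04) at day 9 and stood at -0.07 (SE 0.10, adjusted p = 0.7104) at day 12, and the move between those days passed (0.55, adjusted p = 0.0459). At day 9 Fdps, before the fork, rose and Ggps1, on the branch away from sterols, fell.

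Fdft1, squalene synthase, commits farnesyl diphosphate to sterols. Its signals were 9.45 and 9.74 in WT against 9.65 and 9.73 in KO on day 6, 9.57 and 9.21 in WT against 9.73 and 9.86 in KO on day 9, and 9.25 and 8.92 in WT against 9.89 and 10.25 in KO on day 12. The groups overlapped at day 6, and KO was higher on both later days. Fdft1 rose by 0.98 (SE 0.16, adjusted p = 8.46e-04) at day 12, and the difference of 0.41 at day 9 did not pass (SE 0.16, adjusted p = 0.0870). A further probe set of the gene gave 0.17 and 1.07.

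Sqle, squalene epoxidase, is a rate-limiting oxygen-using step. It had signals of 8.95 and 9.21 in WT against 9.40 and 9.54 in KO on day 6, 9.22 and 8.71 in WT against 9.73 and 9.66 in KO on day 9, and 8.75 and 8.25 in WT against 9.95 and 10.01 in KO on day 12. All 6 KO arrays lay above all 6 WT arrays. Sqle rose by 0.73 (SE 0.18, adjusted p = 0.0104) at day 9 and 1.48 (SE 0.18, adjusted p = 8.92e-05) at day 12, or 2.79-fold; at day 9 it was 0.47 and not called without WT day 9 replicate 2, and also lost its call without KO day 9 replicate 1.

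Lss closes the ring to lanosterol. Its signals were 8.22 and 8.34 in WT against 8.38 and 8.31 in KO on day 6, 8.22 and 7.85 in WT against 7.79 and 7.49 in KO on day 9, and 8.22 and 7.93 in WT against 8.57 and 9.49 in KO on day 12. KO was the lower at day 9 and the higher at day 12, with the KO mice of day 12 far apart. Lss rose by 0.95 (SE 0.24, adjusted p = 0.0121) at day 12 and stood at -0.39 (SE 0.24, adjusted p = 0.2618) at day 9. Without KO day 12 replicate 2 the day 12 value was 0.49 and not called, and the call also ended without WT day 12 replicate 2.

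**Figure D2:**
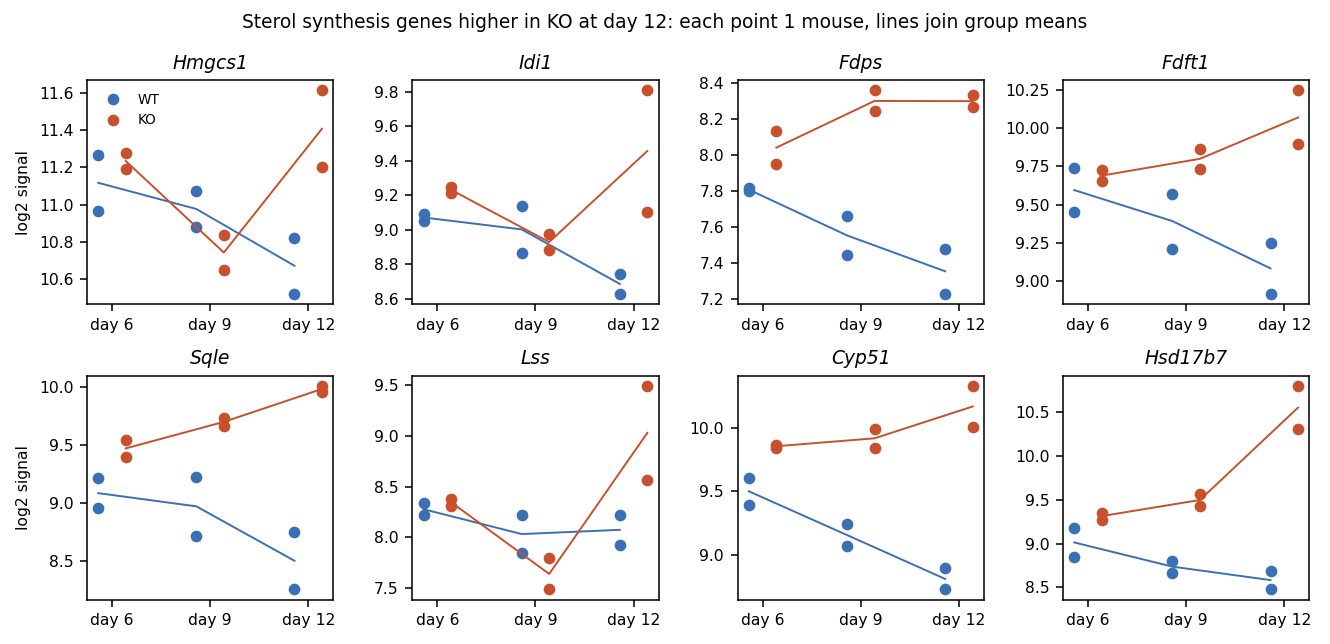
Log2 signal (y axis) of 8 enzymes that rose at day 12, by day (x axis) and genotype (WT blue, KO red), with 1 point per mouse and lines through the means of 2 mice. In Fdps, Sqle, Cyp51 and Hsd17b7 all KO points lie above all WT points, while in Hmgcs1 and Lss the KO points lie below WT at day 9 and above it at day 12.

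After lanosterol, Cyp51 removes the methyl group at carbon 14. Its signals were 9.40 and 9.61 in WT against 9.87 and 9.85 in KO on day 6, 9.24 and 9.07 in WT against 9.99 and 9.84 in KO on day 9, and 8.89 and 8.73 in WT against 10.01 and 10.33 in KO on day 12. KO was above WT on every day, and the WT values of day 12 were the lowest. Cyp51 rose by 0.76 (SE 0.13, adjusted p = 9.56e-04) at day 9 and 1.36 (SE 0.13, adjusted p = 1.21e-05) at day 12, 2.56-fold.

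The next reaction, reduction at carbon 14, is carried out by either of a pair of enzymes, Tm7sf2 and Lbr, the latter also a receptor for lamin B in the nuclear envelope. Tm7sf2 ranged from 6.83 to 7.53 in WT and from 6.37 to 7.24 in KO and fell at day 9 by 0.45 (SE 0.11, adjusted p = 0.0081) and at day 12 by 0.43 (SE 0.11, adjusted p = 0.0105), calls that ended without WT day 9 replicate 2 at day 9 and without either WT array at day 12. Lbr had signals of 9.49 and 9.68 in WT against 9.86 and 9.90 in KO on day 6, 9.78 and 9.65 in WT against 9.08 and 9.01 in KO on day 9, and 9.70 and 9.74 in WT against 8.64 and 9.06 in KO on day 12. KO was the higher at day 6 and clearly the lower afterwards. Lbr fell by 0.67 (SE 0.13, adjusted p = 0.0022) at day 9 and 0.87 (SE 0.13, adjusted p = 3.66e-04) at day 12, after 0.30 (SE 0.13, adjusted p = 0.3870) at day 6. Both enzymes of this step thus fell while those on either side of it, Cyp51 and Msmo1, stood higher at day 12.

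Msmo1, Nsdhl and Hsd17b7 act in turn to remove the methyl groups at carbon 4. Msmo1 had signals of 10.22 and 10.68 in WT against 10.73 and 10.65 in KO on day 6, 10.22 and 10.10 in WT against 10.52 and 10.47 in KO on day 9, and 10.15 and 9.73 in WT against 10.96 and 11.24 in KO on day 12. The groups overlapped at day 6 alone. Msmo1 rose by 1.16 (SE 0.17, adjusted p = 2.94e-04) at day 12, and its 0.33 at day 9 did not pass (SE 0.17, adjusted p = 0.1689).

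Nsdhl had signals of 8.74 and 9.06 in WT against 9.19 and 9.20 in KO on day 6, 8.95 and 8.80 in WT against 8.43 and 8.79 in KO on day 9, and 8.57 and 8.28 in WT against 8.80 and 9.48 in KO on day 12. KO was below WT at day 9 and above it, with a wide pair, at day 12. The day 9 difference of -0.26 was not called (SE 0.20, limma adjusted p = 0.3705). Nsdhl rose by 0.72 (SE 0.20, adjusted p = 0.0211) at day 12; this was 0.38 and not called without KO day 12 replicate 2, and not called without WT day 12 replicate 2.

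Hsd17b7 showed the largest difference of the 26 genes. Its signals were 8.85 and 9.18 in WT against 9.35 and 9.27 in KO on day 6, 8.81 and 8.67 in WT against 9.43 and 9.56 in KO on day 9, and 8.69 and 8.48 in WT against 10.30 and 10.80 in KO on day 12. All KO arrays lay above all WT arrays, and those of day 12 stood apart from the other KO arrays. The gene rose by 0.76 (SE 0.16, adjusted p = 0.0042) at day 9 and 1.97 (SE 0.16, adjusted p = 4.00e-06) at day 12, or 3.91-fold, and the difference grew between these days by 1.21 (adjusted p = 0.0141).

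The last enzymes of the chain follow. Ebp, the isomerase of the ring double bond, was not called at any day and stood at -0.20 (SE 0.12) at day 9 and -0.17 (SE 0.12) at day 12. Sc5d, the desaturase that follows, had signals of 10.25 and 10.23 in WT against 10.32 and 10.25 in KO on day 6, 10.35 and 10.46 in WT against 9.76 and 9.91 in KO on day 9, and 10.21 and 10.21 in WT against 9.93 and 10.28 in KO on day 12. KO was low at day 9, and the groups overlapped at day 12. Sc5d fell by 0.57 (SE 0.12, adjusted p = 0.0033) at day 9 and stood at -0.10 (SE 0.12, adjusted p = 0.5857) at day 12.

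Dhcr7 carries out the closing reduction that yields cholesterol from 7-dehydrocholesterol, which is also the precursor of vitamin D. Its signals were 8.82 and 9.10 in WT against 8.90 and 8.71 in KO on day 6, 9.02 and 8.82 in WT against 7.39 and 7.62 in KO on day 9, and 8.86 and 8.60 in WT against 7.31 and 7.98 in KO on day 12. The groups overlapped at day 6, and both KO arrays of the later days lay below all 6 WT arrays. Dhcr7 fell by 1.42 (SE 0.20, adjusted p = 2.53e-04) at day 9, a 2.67-fold fall, and by 1.08 (SE 0.20, adjusted p = 0.0014) at day 12. Its calls held with any 1 array left out.

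**Figure D3:**
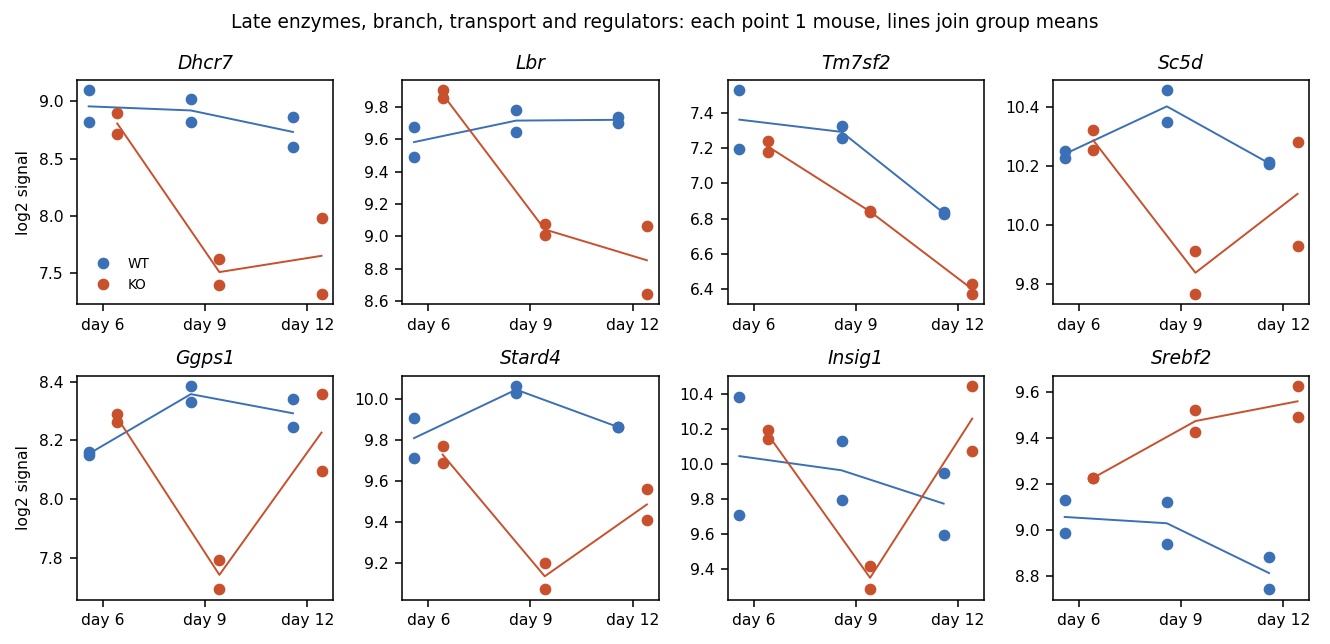
Log2 signal (y axis) of 8 genes of the late steps, the isoprenoid branch, sterol transport and SREBP2 control, by day (x axis) and genotype (WT blue, KO red), with 1 point per mouse and lines through the means of 2 mice. The KO points of day 9 lie below WT in every panel but that of Srebf2, and those of Dhcr7, Lbr, Tm7sf2 and Stard4 also do at day 12.

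Among the regulators, Srebf2 followed the enzymes that rose. It had signals of 8.99 and 9.13 in WT against 9.23 and 9.23 in KO on day 6, 9.12 and 8.94 in WT against 9.52 and 9.42 in KO on day 9, and 8.89 and 8.74 in WT against 9.63 and 9.49 in KO on day 12. All KO arrays lay above all WT arrays. Srebf2 rose by 0.44 (SE 0.10, adjusted p = 0.0071) at day 9 and 0.75 (SE 0.10, adjusted p = 2.22e-04) at day 12; the day 9 call ended without KO day 9 replicate 1 or WT day 9 replicate 2. Scap, the escort protein, ranged from 8.70 to 8.88 in WT and from 8.88 to 9.20 in KO and rose by 0.38 (SE 0.09, adjusted p = 0.0079) at day 12, a call lost without WT day 12 replicate 2. Mbtps1, the protease that makes the opening cut in SREBP2, fell by 0.42 (SE 0.12, adjusted p = 0.0219) at day 9, a call lost without any 1 of the 4 arrays of that day or with quantile normalisation. These signals measure RNA and not the processed SREBP2 protein.

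Insig1 and Insig2 code the proteins that hold SREBP2 back, and Insig1 is itself a known SREBP2 target. Insig1 had signals of 9.71 and 10.39 in WT against 10.14 and 10.19 in KO on day 6, 10.13 and 9.80 in WT against 9.28 and 9.42 in KO on day 9, and 9.95 and 9.60 in WT against 10.07 and 10.45 in KO on day 12. KO was below WT at day 9 and above it at day 12, with a wide WT pair at day 6. Insig1 fell by 0.61 (SE 0.21, adjusted p = 0.0469) at day 9, close to the threshold: the call ended without any array of day 9, either WT array of day 12 or either KO array of day 6, and with quantile normalisation, with eBayes with trend and robust settings, or with the replicate number as a block. At day 12 it stood at 0.49 (SE 0.21, adjusted p = 0.1179).

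Insig2 had signals of 8.43 and 8.56 in WT against 8.61 and 8.76 in KO on day 6, 8.96 and 8.90 in WT against 9.18 and 9.01 in KO on day 9, and 8.62 and 8.56 in WT against 8.87 and 8.53 in KO on day 12. Its groups overlapped at day 12 and were close on the other days. No difference was called, with 0.20 (SE 0.12), 0.16 (SE 0.12) and 0.11 (SE 0.12) in order of day.

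Stard4 carries sterols between membranes. Its signals were 9.71 and 9.91 in WT against 9.69 and 9.77 in KO on day 6, 10.03 and 10.06 in WT against 9.07 and 9.20 in KO on day 9, and 9.86 and 9.86 in WT against 9.41 and 9.56 in KO on day 12. KO was lowest at day 9 and part of the way back at day 12. Stard4 fell by 0.91 (SE 0.10, adjusted p = 4.80e-05) at day 9 and 0.38 (SE 0.10, adjusted p = 0.0147) at day 12, and the move between those days was 0.53 (adjusted p = 0.0491). The day 12 call ended without either WT array of that day or KO day 12 replicate 1. Mylip, a ubiquitin ligase that marks lipoprotein receptors for breakdown, was not called on any day, with -0.32 (SE 0.15, adjusted p = 0.1467) at day 9.

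At day 6 limma called 0 of the 26 genes, against 0.597% of all genes that rose and 0.431% that fell, and 2 of the 26 had an unadjusted p under 0.05. The largest differences were those of Sqle (0.39, SE 0.18, adjusted p = 0.4399) and Cyp51 (0.35, SE 0.13, adjusted p = 0.2749). Both KO arrays lay above both WT arrays in 13 of the 26 genes and below them in 0, where 23.7% and 20.9% of all genes did so. At day 9 the counts were 11 above and 13 below, against 34.6% and 31.1% of all genes, and at day 12 they were 16 and 5, against 31.6% and 26.6%. The 11 above at day 9 were near the share of all genes, and the 5 below at day 12 were a smaller share. Over all days, 5 of the 26 genes (Fdps, Sqle, Cyp51, Hsd17b7 and Srebf2) had all 6 KO arrays above all 6 WT arrays, and 0 had them below, beside 4.07% and 4.40% of all genes. With each KO group set against the mean of all 6 WT arrays, a comparison chosen after seeing the data, the first 4 of these genes were called higher and 0 lower at day 6, where 2.76% and 2.73% of all genes were.

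The genotype effect changed with the day in 14 of the 26 genes by limma's F test of the interaction, against 18.5% of all genes. Hsd17b7 (adjusted p = 0.0013), Lbr (0.0025) and Stard4 (0.0056) had the smallest values. From day 6 to day 9 the difference moved up in 0 genes and down in 5 (Dhcr7, Lbr, Stard4, Ggps1 and Sc5d), against 3.52% and 9.19% of all genes. From day 9 to day 12 it moved up in 5 (Hmgcs1, Hsd17b7, Lss, Ggps1 and Stard4) and down in 0, against 4.06% and 2.02%. The median move of the 26 was 0.43, beside 0.01 over all genes, and the point estimate was above 0 in 24 of 26. These estimates share the same arrays and are not independent, and the share of all genes above 0 is not given here. From day 6 to day 12 the difference moved up in 8 and down in 2, Lbr and Dhcr7, against 5.64% and 7.52%. The 2 that moved down were near the share of all genes. The interaction count was 6 to 9 when KO day 6 replicate 1 or 2, WT day 6 replicate 2, KO day 9 replicate 1, WT day 9 replicate 1 or WT day 12 replicate 2 was left out.

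WT levels moved too. Within WT 0 of the 26 genes were called for a change over days by limma's F test, against 0.0201% of all genes, yet 9 had an unadjusted p under 0.05, beside 2003 of all 19938 genes. From day 6 to day 12 in WT the median of the 26 was -0.26, beside 0.00 over all genes, and 20 of the 26 estimates were below 0. These too share the same arrays, and the share of all genes below 0 is not given here. Within KO 14 of the 26 were called, against 37.6% of all genes. Of the 14 genes that rose against WT at day 12, 5 were called within KO (Hmgcs1, Pmvk, Lss, Msmo1 and Hsd17b7). This F test has no direction. Among the others, its adjusted p within KO was 0.1379 for Cyp51, 0.1391 for Fdps, 0.1019 for Sqle and 0.0533 for Srebf2. From day 6 to day 12 in KO, limma called Pmvk (0.41), Hsd17b7 (1.24) and Srebf2 (0.33, adjusted p = 0.0368) up. Between those days Hmgcs1 (0.17), Lss (0.68) and Msmo1 (0.41) were not called. Set against the mean of all 6 WT arrays, 12 genes were higher and 5 lower in KO of day 12, where 17.0% and 15.7% of all genes were, with a median of 0.35 beside 0.00 over all genes. The 5 lower genes were near the share of all genes. Mvd (0.20) and Nsdhl (0.41) lost their calls in that comparison, and Hmgcs1 stood at 0.485.

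Neighbouring parts of sterol and lipid metabolism were taken as 6 lists, of which 78 genes had a probe set of their own. Their counts are to be read against all genes, of which 12.6% rose and 17.1% fell at day 9, and 13.7% rose and 13.7% fell at day 12. Of 7 other sterol pathway genes, 5 fell and 0 rose at day 9, and 2 fell and 2 rose at day 12. Ebpl, a relative of Ebp, fell by 1.05 (SE 0.11) and 0.75 (SE 0.11) on those days, and Acss2, which makes acetyl-CoA from acetate, by 0.95 (SE 0.10) and 0.79 (SE 0.10). Cyb5r3, an electron donor to sterol enzymes, and Pgrmc1, a haem-binding partner of cytochromes P450, fell at day 9 by 0.80 (SE 0.27) and 0.68 (SE 0.09). Of 13 genes that use isoprenoids, 0 rose and 5 fell at day 9, and 3 rose and 1 fell at day 12; that single fall is a smaller share than the 13.7% of all genes. Among them the protease Zmpste24, which trims prelamin A, fell by 0.70 (SE 0.16) at day 9, Pggt1b, a subunit of geranylgeranyl transferase, by 0.65 (SE 0.13) at day 9, and Pdss2, of ubiquinone synthesis, by 0.57 (SE 0.10) at day 12.

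The proteins that break down sterol-regulated membrane proteins were 12 genes, with 2 rises and 5 falls at day 9 and 4 rises and 1 fall at day 12, against 12.6% and 17.1%, and 13.7% and 13.7%, of all genes. Erlin1, part of a complex that binds such proteins in the endoplasmic reticulum, fell by 1.39 (SE 0.13) at day 9 and 1.18 (SE 0.13) at day 12. At day 9 its partner Erlin2 fell by 1.00 (SE 0.12) and the ubiquitin ligase Rnf145 by 0.89 (SE 0.17), and Nploc4, a cofactor of the segregase Vcp, rose by 0.69 (SE 0.14) at day 12.

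Of 15 genes of the LXR sterol sensors and of oxysterols, 3 rose and 6 fell at day 9, and 2 rose and 4 fell at day 12; the rises at day 12 were near the 13.7% of all genes. Nr1h3, which codes LXR alpha, fell by 1.50 (SE 0.15, adjusted p = 2.68e-05) at day 9 and 1.71 (SE 0.15, adjusted p = 7.86e-06) at day 12. Abcg5 and Abcg8, the paired sterol exporters of the brush border and known LXR targets, fell by 1.42 (SE 0.13) and 1.21 (SE 0.14) at day 9 and stood at -0.33 (SE 0.13, adjusted p = 0.0930) and 0.07 (SE 0.14, adjusted p = 0.7900) at day 12. Ch25h, which makes 25-hydroxycholesterol, an oxysterol that binds Insig, rose by 0.91 (SE 0.09) and 0.68 (SE 0.09). Srebf1, the sister gene of Srebf2 and an LXR target, is named after its values were seen; it was not called and stood at 0.05 (SE 0.11) at day 9 and 0.20 (SE 0.11) at day 12.

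Of 18 genes of cholesterol uptake, trafficking and esters, 2 rose and 6 fell at day 9, and 2 rose and 3 fell at day 12; the counts at day 12 and the rises at day 9 were near those of all genes (13.7% each way, and 12.6%). Vldlr, a lipoprotein receptor, rose by 1.14 (SE 0.14) at day 9 and by 3.77 (SE 0.14, adjusted p = 1.24e-08) at day 12, from a mean signal of 6.19 in WT to 9.96 in KO. Npc1l1, which takes up cholesterol from the gut lumen, fell by 1.67 (SE 0.13) at day 9 and fell by 1.89 (SE 0.13) at day 12. Apoa1, an apolipoprotein, fell by 0.82 (SE 0.10) at day 12, and Npc1, which exports cholesterol from lysosomes, by 0.74 (SE 0.13) at day 9.

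Of 13 genes of fatty acid synthesis, 2 rose and 4 fell at day 9, and 4 rose and 2 fell at day 12; the rises at day 9 and the falls at day 12 were near the 12.6% and 13.7% of all genes. Me1, malic enzyme, rose by 2.13 (SE 0.21) and 1.87 (SE 0.21), and Mid1ip1, an activator of acetyl-CoA carboxylase, by 1.42 (SE 0.15) and 1.15 (SE 0.15). Fads2, a desaturase, fell by 2.04 (SE 0.11) and 1.87 (SE 0.11). Scd2, a desaturase that makes monounsaturated fats, fell by 0.78 (SE 0.24) at day 9 and rose by 1.80 (SE 0.24, adjusted p = 1.53e-04) at day 12. On the same days 5 and 6 of the 12 enterocyte markers and 5 and 8 of the 9 crypt markers fell, and their part in these values was not tested.

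**Figure D4:**
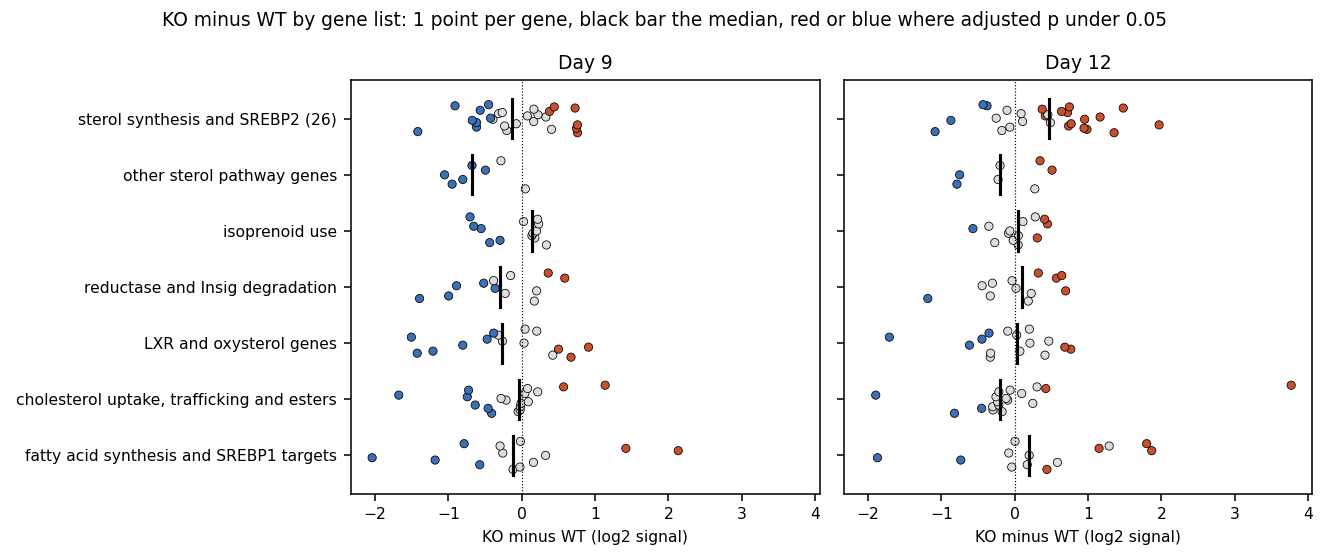
KO minus WT differences in log2 signal (x axis) at days 9 and 12 for the 26 sterol synthesis and SREBP2 genes and the 6 neighbouring lists (y axis), with 1 point per gene and a black bar at the median; red and blue points passed an adjusted p of 0.05. The median of the 26 genes moves from -0.14 to 0.47, while those of the other lists lie between -0.68 and 0.20 on both days; the point far to the right at day 12 is Vldlr (3.77).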

How the data were processed

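Per the labels, RNA of whole jejunum was measured on Affymetrix Mouse Gene ST arrays. The deposited table holds log2 signals of 35556 probe sets on 12 arrays, kept unchanged (array medians 5.95 to 6.02). How the authors corrected, summarised and normalised them is not given in the sources used here; limma and R 3.5 are listed, without a stated role, in the submitters' processing notes. Of the probe sets 21789 carried 1 symbol in the platform annotation; for symbols with several, that with the highest mean was kept, which left 19938 genes. Group means were fitted over all 12 arrays with limma 3.58.1 in R 4.3.3 (6 residual and 5.23 prior degrees of freedom), two-sided. The fit was also run on simulated data with independent values, which checks the code and not the calls made here. Replicate arrays correlated at 0.992 to 0.997. With 2 mice against 2 an exact permutation p cannot go below 0.333; the number of arrays limits precision. No label says more of how the mice of a group were kept apart, so p-values measure only the spread between these samples. Alternatives were other scalings, row rules, filters and fits, a replicate block and each array left out. All 26 genes are named; per-array values are given for the 18 called genes with the largest differences and for Insig2, and up to 4 called genes per other list. Genes, lists and tests were chosen with earlier results of these data known. Some items are not reported here.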

Additional observations from a re-analysis of the deposited data

Results flagged for a closer look

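The KO minus WT difference differed between days 6, 9 and 12 by limma's F test in 14 genes, which is what singled them out. The adjusted p was 0.00134 for Hsd17b7, 0.00253 for Lbr, 0.00563 for Stard4, 0.00819 for Cyp51, 0.00986 for Ggps1 and 0.0185 for Dhcr7. It was 0.0241 for Fdps, 0.0274 for Sqle, 0.0278 for Hmgcs1, 0.0293 for Msmo1, 0.0421 for Lss, 0.0434 for Srebf2, 0.0453 for Sc5d and 0.0461 for Fdft1. Groups of 2 mice are too small for a test of single outlying arrays.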

How the results depend on the processing

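No gene reversed its direction in a call under any setting tried. The calls of 8 of 14 genes at day 9, 10 of 18 at day 12 and 13 of 17 over the average of days held with any 1 array left out and under the other settings run. With 1 array left out, the count called ran from 8 to 14 at day 9, 10 to 20 at day 12, 6 to 17 for the interaction and 8 to 18 for the change over days in KO, and the median difference at day 12 from 0.329 to 0.675. Against the mean of all 6 WT arrays, chosen after seeing the data and mixing WT of all days, 4 genes were called at day 6. Against WT of day 6 there were 0. CACNCCA was in 6 genes' promoters and TCACNCCAC with 1 letter changed, added after seeing the data, in 11, in place of 1. Same-numbered arrays deviated together at correlations of 0.18, -0.09 and 0.113, so the numbers were not taken as pairs; with a replicate block 13, 18 and 16 genes were called at day 9, day 12 and on average, and 12 for the interaction; the calls lost were Insig1 at day 9 and Ggps1 on average.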
